A study of Sus scrofa with 6 samples.

Results

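miR-143 and miR-145 are a pair of miRNAs made from neighbouring hairpins, and each hairpin gives a mature strand from its 5′ side (5p) and one from its 3′ side (3p). The 4 members described here are miR-143-3p, miR-143-5p, miR-145-5p and miR-145-3p, of 533 sequences counted in the jejunum of piglets. The count tables give sequences without names, so a sequence was taken as a member when its read counts in all 6 libraries equalled the row of that miRNA in the study's table of known miRNAs. Exactly 1 sequence matched for each of the 4. The 533 sequences were 239 known miRNAs, the members included, 256 candidate miRNAs and 38 without a name.

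The piglets were all of 1 cross, Duroc × Yorkshire × Landrace, from 4 litters, and carried no allele or agent under test. The weaning group was taken from the sow at 25 d of age and given a commercial pig diet. The suckling group stayed with the sow, so removal from the sow and the change of diet cannot be told apart. Jejunum of both groups was collected when the piglets were 26 d old (day 1 after weaning, libraries S1 for suckling and W1 for weaning), 29 d old (day 4, S4 and W4) and 32 d old (day 7, S7 and W7). Each library was 1 pool of equal amounts of total RNA from 4 piglets, so every condition had 1 library and differences between piglets were averaged before sequencing. The RNA of a piglet came from 3 pooled cross-sections of jejunum, and the sources used here do not say that any layer of the wall was removed. Summed over the sequences, the libraries held 4441416 to 5373146 counts, and 437 to 477 sequences were detected in each. In S1, W1, S4 and S7 this sum exceeded the clean reads that the paper gives, so some reads were counted under several sequences. The library totals and the shares of a library given below refer to these summed counts.

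miR-143 and miR-145 are transcribed together and are among the most abundant miRNAs of smooth muscle. In mouse intestine they are found in the mesenchyme, the smooth muscle and stromal cells under the epithelium, and not in the epithelial cells themselves. miR-145-5p is known as a repressor of the transcription factors KLF4 and KLF5 in vascular smooth muscle, where the pair favours the contractile state. In mouse gut the pair is known for limiting IGFBP5, a binding protein for insulin-like growth factors, in the cells under the epithelium.

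The mature strands are shown because their seeds, bases 2 to 8, fix which messages each one can pair with. They are written 5′ to 3′ as the deposited count tables give them, with the seed in capitals.
miR-143-3p: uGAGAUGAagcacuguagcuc
miR-143-5p: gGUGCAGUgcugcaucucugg
miR-145-5p: gUCCAGUUuucccaggaaucccuu
miR-145-3p: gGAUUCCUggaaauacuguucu
The 4 seeds differed from each other. The strands were 21, 21, 24 and 22 nt long, with a GC content of 47.6%, 61.9%, 50% and 40.9%. Paired with RNAduplex, the strands of miR-143 formed 16 base pairs at -26.1 kcal/mol and those of miR-145 formed 17 base pairs at -23.2 kcal/mol. Crossed pairs were weaker, at -7.1 kcal/mol for miR-143-5p with miR-145-3p and -5.5 kcal/mol for miR-145-5p with miR-143-3p. In the RefSeq annotation of assembly Sscrofa11.1, MIR143 and MIR145 lie on the same chromosome with 0 genes between them, and 1 gene model, IL17B, spans both. The reads were aligned by the authors to another assembly, so no coordinates are given.

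Among the 532 other sequences, 1 shared a member's seed. This was a candidate, SSC1_6192, which shared the seed of miR-143-3p and is shown for comparison.
SSC1_6192: uGAGAUGAaguacugcag
Over its 18 nt it differed from miR-143-3p by the substitutions C11U and U16C, with positions counted from 1 at the 5′ end. It held 7 (S1) and 8 (W1) reads on day 1, 15 (S4) and 14 (W4) on day 4, and 4 (S7) and 18 (W7) on day 7, which is 0.00102% of the reads of miR-143-3p. The seeds of miR-143-5p, miR-145-5p and miR-145-3p were found in 0 of the 532 other sequences.

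The 4 members together held 6556463 reads, of which 99.0% were miR-143-3p. This was 22.8% of the summed counts of all sequences, which can hold the same read under several sequences. miR-143-3p, the main strand of miR-143, was counted 740104 (S1) and 928489 (W1) times on day 1, 1077648 (S4) and 1444250 (W4) times on day 4, and 845237 (S7) and 1456066 (W7) times on day 7. It was the most abundant sequence of W4 and W7, the second in W1 and S4, and the third in S1 and S7. miR-145-5p, the main strand of miR-145, was counted 5635 and 7224 times on day 1, 8691 and 15779 times on day 4, and 8655 and 8274 times on day 7, in the suckling and the weaning library. Its rank lay between 33 and 39 in the 6 libraries, and W4 stood far above the rest. miR-145-3p, the other strand of the miR-145 duplex, was counted 1139, 1580, 1521, 2212, 1298 and 1498 times in S1, W1, S4, W4, S7 and W7, with ranks of 67 to 80. miR-143-5p, the partner strand of miR-143-3p, was counted 165, 207, 201, 280, 143 and 167 times in the same order, with ranks of 141 to 158. The order of the 4 strands was therefore the same in every library, and the most and least abundant were separated by a factor of 4485 to 8719 in reads.

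Levels were scaled to the library total as CPM, the counts per 1000000 summed counts of the library. miR-143-3p had 164736 CPM in S1, 202857 in S4 and 157308 in S7, against 199712 in W1, 320667 in W4 and 327838 in W7. The W4 and W7 values stood above all 3 suckling libraries, whereas W1 lay below S4. miR-145-5p had 1254 CPM in S1, 1636 in S4 and 1611 in S7, against 1554 in W1, 3503 in W4 and 1863 in W7. W4 stood far above the suckling libraries and W7 just above them, and the groups overlapped at W1. miR-145-3p had 254, 286 and 242 CPM in S1, S4 and S7, against 340, 491 and 337 in W1, W4 and W7, and all 3 weaning libraries were above all 3 suckling libraries. miR-143-5p had 36.7, 37.8 and 26.6 CPM in the suckling libraries and 44.5, 62.2 and 37.6 in the weaning libraries, so that W7 lay between S1 and S4. The highest library exceeded the lowest by 2.08-fold for miR-143-3p, 2.34-fold for miR-143-5p, 2.79-fold for miR-145-5p and 2.03-fold for miR-145-3p.

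These levels depended on how the libraries were scaled, because 3 sequences made up 53.5% to 72.8% of the summed counts of each library. miR-143-3p took 16.5% (S1) and 19.97% (W1) of the summed counts on day 1, 20.3% (S4) and 32.1% (W4) on day 4, and 15.7% (S7) and 32.8% (W7) on day 7. miR-192, an abundant miRNA of intestinal epithelium, took 35.3%, 30.3%, 33.4%, 15.5%, 34.5% and 20.7% in the same order. miR-215, which shares its seed with miR-192, took 19.9%, 15.6%, 19.1%, 5.95%, 17.3% and 8.70%. The shares of the epithelial sequences were thus lowest in W4 and W7, the libraries in which miR-143-3p had its highest shares. In reads, miR-143-3p stood at 0.467 per miR-192 read in S1 and 0.660 in W1, at 0.607 in S4 and 2.07 in W4, and at 0.456 in S7 and 1.58 in W7. In RNA of whole tissue, fewer cells of a type and less RNA per cell cannot be told apart, and an amount of miR-143-3p per cell cannot be read from these shares.

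**Figure D1:**
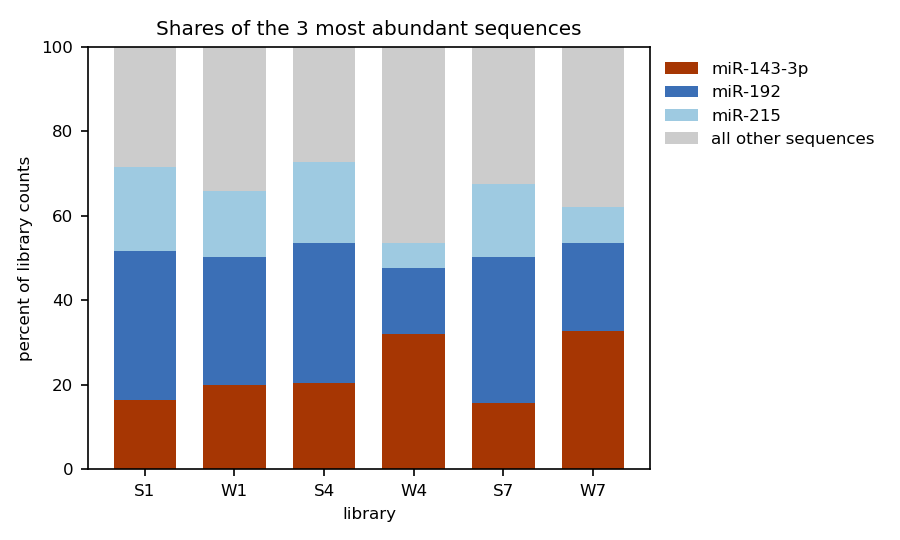
Stacked bars give the percent of the summed counts of each library (y axis, 0 to 100), in which a read can stand under several sequences. The parts are miR-143-3p, miR-192, miR-215 and all other sequences, for S1, W1, S4, W4, S7 and W7 (x axis). miR-143-3p has its largest shares in W4 (32.1%) and W7 (32.8%), where miR-192 has its smallest (15.5% and 20.7%).

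With TMM scaling, which sets the libraries so that the bulk of the sequences is level between them, most of the difference between the groups was no longer seen. miR-143-3p then had 199131 CPM in S1, 254299 in S4 and 170734 in S7, against 192865 in W1, 225130 in W4 and 294005 in W7. The weaning libraries W1 and W4 lay within the range of the suckling libraries, and W7 was above it. miR-145-5p had 1516, 2051 and 1748 TMM-scaled CPM in S1, S4 and S7 and 1501, 2460 and 1671 in W1, W4 and W7, with W4 above and W1 just below the suckling range. miR-145-3p ranged from 262 to 359 and miR-143-5p from 28.9 to 47.4 TMM-scaled CPM over the 6 libraries, and the groups overlapped for both. The fold from the lowest to the highest library was 1.37 for miR-145-3p and 1.64 to 1.72 for the other members.

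**Figure D2:**
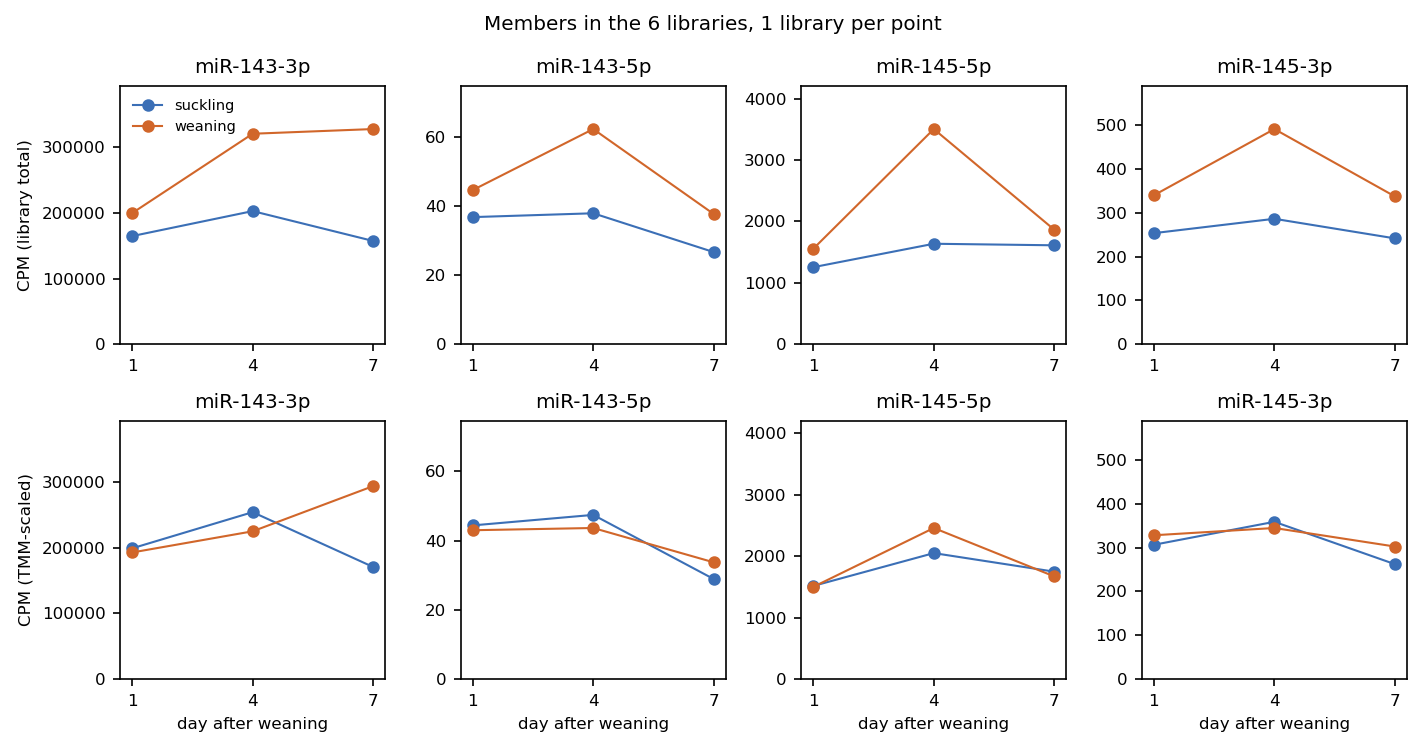
Level of each member (CPM, y axis from 0, 1 panel per member) by day after weaning (x axis, days 1, 4 and 7), scaled by the library total in the upper row and by TMM in the lower row; each point is 1 pooled library, blue for suckling and orange for weaning, and the lines only join the points of a group. The weaning points lie above the same-day suckling points in all upper panels, while in the lower panels the clearest separation is that of miR-143-3p on day 7 (294005 against 170734 CPM).

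The study asked how weaning changes jejunal miRNAs at each time after weaning. For the whole groups, 3 weaning libraries were compared with 3 suckling libraries with edgeR's quasi-likelihood test and TMM scaling, over the 290 sequences that reached 10 reads in 3 or more libraries. No member passed an adjusted p of 0.05, and neither did any other sequence (0% called, with 44 at an unadjusted p under 0.05; DESeq2 called 10, 3.45%, and no member). The mean level of miR-143-3p was 208055 ± 42491 TMM-scaled CPM in the suckling and 237333 ± 51663 in the weaning libraries (SD, n = 3 each), a log2 difference of 0.19 (SE 0.22, edgeR adjusted p = 0.756). The log2 difference was -0.00 for miR-143-5p (SE 0.23, edgeR adjusted p = 0.997), 0.08 for miR-145-5p (SE 0.21, edgeR adjusted p = 0.893) and 0.07 for miR-145-3p (SE 0.14, edgeR adjusted p = 0.865). For all 4 members the difference was smaller than its standard error. With the library total in place of TMM it was larger, at 0.69, 0.51, 0.62 and 0.58 for miR-143-3p, miR-143-5p, miR-145-5p and miR-145-3p, and no member passed (edgeR adjusted p of 0.0831, 0.159, 0.148 and 0.0945; 0.345% of sequences called). The difference of miR-143-3p was 0.38 without W1, 0.36 without S4, 0.29 without W4, 0.066 without S7 and 0.0065 without W7, and did not pass in any of them. Leaving out W1 moved the number of called sequences from 0 to 12 and leaving out S7 moved it to 1.

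Same-day ratios set 1 pool against 1 pool and have no replicate check. Each is given with a 95% interval that covers counting error only, and beside the median ratio of all sequences with at least 50 reads in the pair of libraries. On day 1 that median was 0.28 on the log2 scale over 229 sequences, and 6.11% of them were at least 2-fold higher in W1. None of the 4 members was at least 2-fold higher, with this scaling or with TMM (2.18% of all sequences). The log2 ratio of W1 to S1 was 0.28 for miR-143-3p (0.27 to 0.28), 0.28 for miR-143-5p (-0.02 to 0.58), 0.31 for miR-145-5p (0.26 to 0.36) and 0.42 for miR-145-3p (0.31 to 0.53). Relative to the median of all sequences, the members thus stood at -0.00, -0.00, 0.03 and 0.14, and the cluster did not stand out 1 d after weaning.

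On day 4 the median of all sequences was 0.83 over 244 sequences, and 33.6% were at least 2-fold higher in W4, against 1 of the 4 members. This was miR-145-5p, with a log2 ratio of W4 to S4 of 1.10 (1.06 to 1.14), a 2.14-fold difference that ranked 68 from the highest. The ratio was 0.66 for miR-143-3p (0.66 to 0.66), 0.72 for miR-143-5p (0.45 to 0.99) and 0.78 for miR-145-3p (0.68 to 0.87). Relative to the median, miR-145-5p stood at 0.27, while miR-143-3p stood at -0.16, miR-143-5p at -0.11 and miR-145-3p at -0.05. The intervals of miR-143-5p (-0.38 to 0.16) and miR-145-3p (-0.14 to 0.05) included the median. Beyond counting error, miR-145-5p therefore lay above the median on day 4 and miR-143-3p below it. With TMM scaling the log2 ratios were 0.26 for miR-145-5p, -0.18 for miR-143-3p, -0.12 for miR-143-5p and -0.06 for miR-145-3p. Under TMM 0 of the 4 members reached 2-fold, against 4.1% of all sequences. With the library total all 4 members were at least 1.5-fold higher, as were 70.5% of all sequences. Scaled by clean reads, or by a total that left out the 3 most abundant sequences, 0 of the 4 reached 2-fold, against 19.3% and 4.51% of all.

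On day 7 the median of all sequences was 0.21 over 237 sequences, and 6.75% were at least 2-fold higher in W7, against 1 of the 4 members. This time it was miR-143-3p, with a log2 ratio of W7 to S7 of 1.06 (1.06 to 1.06), a 2.08-fold difference that ranked 13 from the highest. The ratio was 0.50 for miR-143-5p (0.17 to 0.83), 0.48 for miR-145-3p (0.37 to 0.59) and 0.21 for miR-145-5p (0.17 to 0.25). Relative to the median, miR-143-3p stood at 0.85, miR-143-5p at 0.28, miR-145-3p at 0.27 and miR-145-5p at -0.00. The strand that stood highest on day 4, miR-145-5p, was on day 7 the one at the median. With TMM scaling the log2 ratio of miR-143-3p was 0.78 and 0 of the 4 members reached 2-fold, against 3.38% of all sequences. The same count of 0 was found with clean reads (4.64% of all sequences) and with those 3 sequences left out of the total (3.8%).

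**Figure D3:**
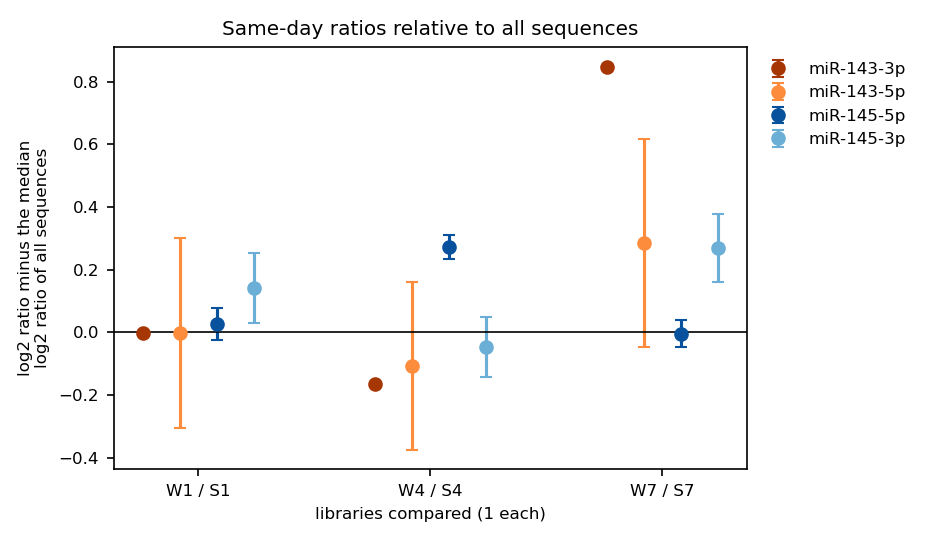
The log2 ratio of the weaning to the same-day suckling library minus the median log2 ratio of all sequences (y axis) for the 4 members, for W1 / S1, W4 / S4 and W7 / S7 (x axis, 1 library each); bars are 95% intervals for counting error only, and those of miR-143-3p are smaller than its point. miR-145-5p stands highest on day 4 (0.27) and miR-143-3p on day 7 (0.85).

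Each weaning library was also tested with edgeR against the 3 suckling libraries, on the assumption that the lone library varies as the suckling libraries do. The suckling libraries were of 26, 29 and 32 d, so these comparisons mix ages. Leaving out S7 takes away the suckling library of the age of W7, so age and weaning then cannot be told apart for W7. W1 gave no call (0% of 290, with 19 at an unadjusted p under 0.05 and 0 by DESeq2). W4 gave 6 calls (2.07%; 5.17% by DESeq2), none of them a member with either tool, and the log2 difference of miR-145-5p was 0.50 (SE 0.18, edgeR adjusted p = 0.305). W7 gave 5 calls (1.72%; 8.62% by DESeq2), again without a member, and the log2 difference of miR-143-3p was 0.58 (SE 0.20, edgeR adjusted p = 0.200). Without S7 both of these passed, miR-145-5p in W4 with 0.51 (edgeR adjusted p = 0.0255) and miR-143-3p in W7 with 0.45 (edgeR adjusted p = 0.00805), while the calls over all sequences went from 6 to 48 and from 5 to 59. Without S1 or without S4, the calls in W7 went to 0. With the library total, all 4 members passed in W4, by 0.87 for miR-143-3p, 0.88 for miR-143-5p, 1.22 for miR-145-5p and 0.91 for miR-145-3p (edgeR adjusted p of 0.0106, 0.0375, 0.0106 and 0.0206), where 52.4% of all sequences were called. In W7 it was miR-143-3p that passed under the library total, by 0.91 (edgeR adjusted p = 0.0107), where 5.52% were called.

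Ratios between strands within a library do not depend on scaling. The ratio of miR-143-3p to miR-145-5p, the main strands of the hairpins, was 131 (S1) and 129 (W1) on day 1, 124 (S4) and 91.5 (W4) on day 4, and 97.7 (S7) and 176 (W7) on day 7. W4 had the lowest and W7 the highest value, and S7 lay close to W4. Between the libraries of a day the log2 of this ratio differed by -0.03 on day 1 (-0.08 to 0.02), by -0.44 on day 4 (-0.48 to -0.40) and by 0.85 on day 7 (0.81 to 0.89). On day 4 the weaning library therefore held less miR-143-3p per miR-145-5p than its suckling counterpart, and on day 7 it held more. Over the groups, the weaning minus suckling difference was 0.13 with an exact two-sided permutation p of 0.9 (n = 3 each, for which 0.1 is the smallest p possible).

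The same contrast appeared in part in ratios that share miR-143-3p or miR-145-5p with the one above, so these are not separate observations of it. The ratio of miR-143-3p to its partner miR-143-5p was 4485 in S1 and 4485 in W1, 5361 in S4 and 5158 in W4, and 5911 in S7 and 8719 in W7. Its log2 difference was -0.00 on day 1, -0.06 on day 4 (-0.32 to 0.21) and 0.56 on day 7 (0.24 to 0.88). The ratio of miR-143-3p to miR-145-3p was 650 and 588 on day 1, 709 and 653 on day 4, and 651 and 972 on day 7 in the suckling and weaning library, and W7 was again the highest. The ratio of the minor strands, miR-143-5p to miR-145-3p, was the steadiest of the 6 pairs, at 0.145, 0.131, 0.132, 0.127, 0.110 and 0.111 in S1, W1, S4, W4, S7 and W7. Its day differences of -0.14, -0.06 and 0.02 were within counting error. In W7 miR-143-3p was thus high against each of the other 3 strands. In W4 it was miR-145-5p, which was above its suckling counterpart by 0.32 against miR-145-3p (0.22 to 0.42).

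**Figure D4:**
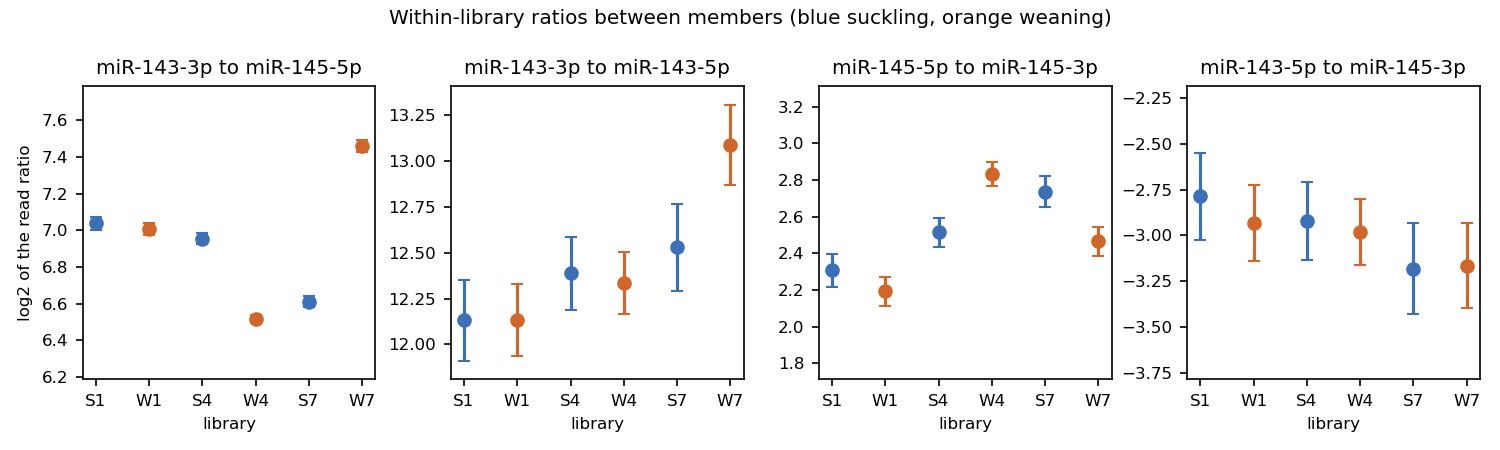
The log2 of the ratio of reads between members (y axis, not from 0, all panels span the same range) in each library (x axis), blue for suckling and orange for weaning; bars are 95% intervals for counting error only. miR-143-3p to miR-145-5p is lowest in W4 and highest in W7 (ratios of 91.5 and 176), whereas miR-143-5p to miR-145-3p stays between 0.110 and 0.145.

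Within each hairpin the balance of the strands was of opposite kind. The 5p strand made up 0.0223%, 0.0223%, 0.0186%, 0.0194%, 0.0169% and 0.0115% of miR-143 reads in S1, W1, S4, W4, S7 and W7. This was the lowest share of a minor strand among 44 hairpins with both strands named. A strand was named only above a minimum number of reads, so hairpins with a rarer minor strand were left out. The lowest share that a hairpin could show was therefore smaller the more reads it had. How far the rank of miR-143 came from its many reads was not tested. For miR-145 the 5p strand made up 83.2%, 82.1%, 85.1%, 87.7%, 87.0% and 84.7% in the same order, and its minor strand, at 14.6% of all reads of the hairpin, ranked 33 from the lowest. The share of miR-145-5p was higher in W4 than in S4 by 2.60 percentage points, whereas W7 differed from S7 by -2.29 points and W1 from S1 by -1.13 points. The 95% Wilson intervals of the suckling and weaning library were apart for 0 of the 2 hairpins on day 1 (22.5% of 40 hairpins), 1 of 2 on day 4 (15% of 40) and 2 of 2 on day 7 (29.3% of 41). For miR-143 on day 7 the intervals were 0.0144 to 0.0199% in S7 and 0.00986 to 0.0133% in W7. Across the groups the ratio of miR-145-5p to miR-145-3p differed by -0.02 on the log2 scale (exact two-sided permutation p = 0.9).

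Against miR-192, both main strands stood higher in every weaning library than in the suckling library of that day. The log2 difference was 0.50, 1.77 and 1.79 for miR-143-3p and 0.53, 2.21 and 0.94 for miR-145-5p on days 1, 4 and 7. The groups did not overlap for either ratio, with a weaning minus suckling difference of 1.36 for miR-143-3p and 1.23 for miR-145-5p (exact two-sided permutation p = 0.1 each, the smallest possible, and 0.4 after Benjamini-Hochberg adjustment over the 8 ratios tested). The difference for miR-145-5p was 0.65 without W4 and 1.72 without W1. The share of miR-192 itself was lower in each weaning library than in the suckling library of that day, and how much of either difference came from the cluster was not tested.

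The miRNAs whose profile over the 6 libraries was most like that of each main strand were found by the SD of the log2 ratio within a library, among 224 known miRNAs. For miR-143-3p these were miR-128 (SD 0.107), miR-490-3p (0.166), miR-421-3p (0.169), miR-133a (0.174) and miR-4332 (0.191), against a median of 0.381 over all. miR-490-3p and miR-133a are known from muscle, and the counts of both strands of miR-133a stand on the same sequence. For miR-145-5p they were miR-218-5p (0.111), miR-34c (0.117), miR-628 (0.119), miR-338 (0.190) and miR-101 (0.196), against a median of 0.359. The lists of the main strands had no miRNA in common. miR-145-5p came in place 82 for miR-143-3p with an SD of 0.338, and miR-145-3p in place 21 with 0.253, whereas miR-192 came in place 218 with 0.933. The closest pair within the cluster was miR-143-5p with miR-145-3p, at 0.153, and miR-145-3p was in place 2 for miR-143-5p. Several of these neighbours have few reads, such as miR-4332 with 88 and miR-628 with 103 in all, so their SD holds much counting error.

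miRNAs known from other cell types of the jejunum were set beside the cluster. The other muscle miRNAs were miR-1, miR-133a, miR-133b, miR-490-3p and miR-490-5p, which summed to 387 to 518 CPM in the suckling and 497 to 808 CPM in the weaning libraries. miR-490-5p held under 50 reads in each pair of libraries and is left out of the ratios. For the other 4, the median log2 ratio minus that of all sequences was -0.06, -0.19 and 0.59 on days 1, 4 and 7, beside 0.01, -0.08 and 0.28 for the 4 members. On day 7 all 4 stood above the median of all sequences, miR-490-3p by 0.75, miR-1 by 0.67, miR-133a by 0.52 and miR-133b by 0.50, and so did 3 of the 4 members. All but the last base of miR-133a lies within the sequence of miR-133b, so the counts of both can hold the same reads. On day 4 it was 1 of 4 in each list, miR-1 by 0.37 and miR-145-5p by 0.27. At 2-fold with the library total, miR-1 was the only one of these muscle miRNAs past it, on day 4, against 33.6% of all sequences. Under TMM scaling 0 of these 4 passed it on that day, against 4.1% of all sequences. The counts of miR-1 were small, 53 (S4) and 103 (W4).

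The 8 mesenchymal miRNAs (the miR-199 strands, miR-214, miR-100, miR-99a and miR-125b) had medians, minus that of all sequences, of 0.37 on day 1, 0.11 on day 4 and -0.01 on day 7. They did not move alike. On day 1 miR-100 stood at 1.12, miR-99a at 1.04 and miR-125b at 0.60, while miR-199a-3p, miR-199b-3p and miR-214 stood at 0.01, 0.01 and -0.07. On day 4 miR-199a-3p, miR-199b-3p, miR-199a-5p and miR-214 stood at 0.28, 0.28, 0.29 and 0.18, beside 0.27 for miR-145-5p. The rest of the list was lower, with miR-199b-5p at 0.04, miR-125b at -0.12, miR-100 at -0.33 and miR-99a at -0.34. miR-199a-3p and miR-199b-3p are the same sequence shifted by 1 base, so their counts can hold the same reads. Of the 11 epithelial miRNAs listed, 6 were named in the tables, namely miR-192, miR-215, 3 strands of the miR-194 hairpins, and miR-429. The 6 summed to 542637 to 579081 CPM in the suckling libraries, against 478312 in W1, 225509 in W4 and 306745 in W7. Their medians were -0.57, -2.02 and -1.11 relative to all sequences. miR-429 differed from the rest, at -0.25, -0.57 and 0.10, and its log2 ratio with the library total was 0.03, 0.25 and 0.31. The medians of the 2 endothelial strands of miR-126 were 0.18, 0.11 and -0.05, those of the 6 leukocyte miRNAs 0.19, 0.68 and 0.28, and those of the 3 red cell miRNAs -0.33, -0.21 and -0.83. No named miRNA of any list was at 0 in a library. The part of these cell types in the values of the cluster was not tested, and reads of the cluster from muscle and from other stromal cells cannot be told apart in these libraries.

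**Figure D5:**
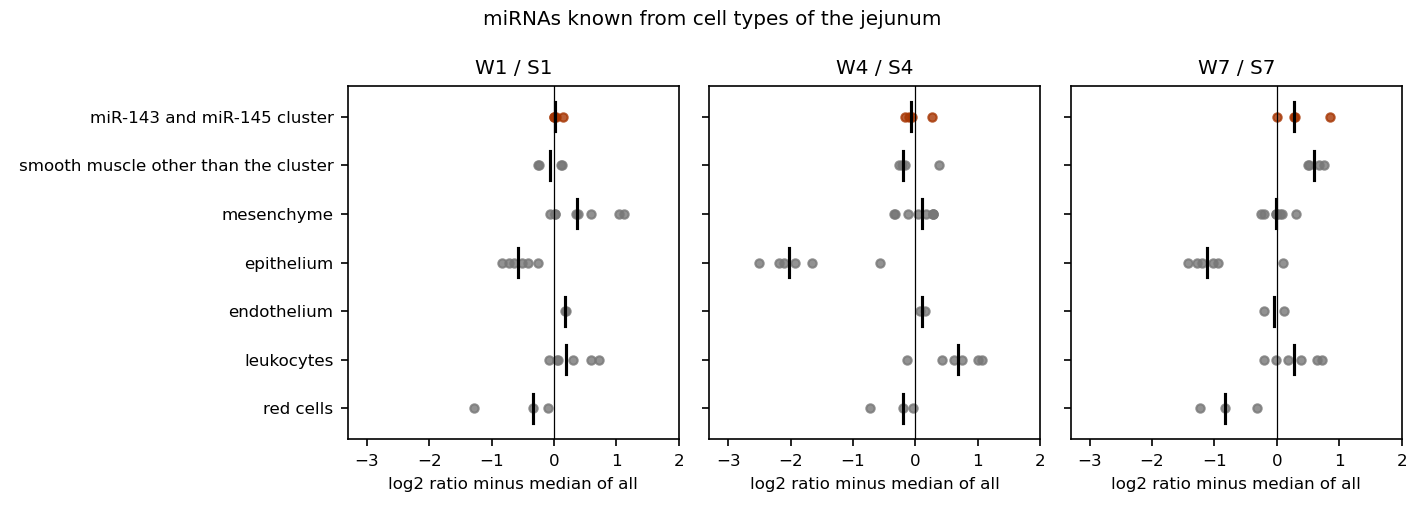
Each point is 1 miRNA of a cell type list (y axis), placed at its log2 ratio of the weaning to the same-day suckling library minus the median of all sequences (x axis), for days 1, 4 and 7 in the panels from left to right; black bars are list medians and the cluster is in brown. On day 7 the other muscle miRNAs, labelled smooth muscle other than the cluster, have a median of 0.59 and the mesenchymal ones -0.01. The members then lie between -0.00 and 0.85. The epithelial list is lowest on day 4 (-2.02).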

How the data were processed

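Small RNA of 15 to 32 nt was sequenced by the authors from 6 pooled jejunal libraries. Reads were cleaned and mapped without mismatches to assembly Sscrofa 9.2 with Bowtie (version 0.12.2, per the submitters' processing notes), and compared with miRBase 19.0 and Rfam 10.1; candidates came from miRDeep. The authors deposited unscaled counts of reads for each sequence in each library, and the step from alignments to counts is not given in the sources used. The FPKM values and t-test of the paper were not repeated.

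Names were given where the counts of a sequence in all libraries (at least 20 reads) equalled a row of the study's table of known miRNAs, or where it was identical to a listed candidate. Reads aligned to the hairpin shared at least 15 nt with 3 of the 4 members; miR-143-5p was not found in the shortened copy of that table. For 54 sequences on several rows, the highest count per library was used once.

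CPM used the library total, the sum of the counts of all sequences, in which a read can stand under several sequences. Sequences that reached 10 reads in 3 or more libraries were tested with edgeR 4.0.16 (quasi-likelihood, TMM, R 4.3.3) and DESeq2 1.42.0, with Benjamini-Hochberg adjustment; the code was tested on simulated data. Ratios, Wilson and binomial intervals and permutation tests were computed in Python 3.11.15, and duplexes with ViennaRNA 2.7.2. Since pools are not single piglets, p-values measure the spread between pools of different days. The members, lists, tests and alternatives were chosen with earlier results of these data known. Besides the members, named miRNAs were those sharing a seed, the 5 most like each main strand, miR-192, miR-215 and members of the cell type lists. Alternatives were other scalings (library total, the total without the 3 most abundant sequences, clean reads), DESeq2, no filter, a 1.5-fold threshold, leaving out each library and the day as a block, since the design gives the same days to both groups. Same-day deviations correlated by 0.249, -0.356 and 0.212 on days 1, 4 and 7 over 153 sequences.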

Additional observations from a re-analysis of the deposited data

Results flagged for a closer look

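In 3 of the within-library ratios the weaning library differed from its suckling library in one direction on one day and in the opposite direction on another. With 1 library per condition the difference between days was not tested. The 3 ratios share strands with each other, so they are not separate results. The log2 ratio of miR-143-3p to miR-145-5p was higher in W7 than in S7 by 0.85 and lower in W4 than in S4, a gap between the days of 1.29. That of miR-145-5p to miR-145-3p was higher in W4 and lower in W7, with a gap of 0.59. That of miR-143-3p to miR-145-3p was higher in W7 by 0.58 and lower in W1, with a gap of 0.72. For each of these 6 day values the 95% interval for counting error lay on one side of 0.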

How the results depend on the processing

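Among the alternative values, 61 moved, 34 reversed and 7 passed the threshold where the first value had not. The same-day ratios of the members moved mostly with the scaling. Among them a change of sign was counted as moved and not as reversed. miR-143-3p on day 4, for example, went from 0.66 with the library total to -0.18 with TMM. For 3 weaning against 3 suckling libraries, calls over all sequences went from 0 to 1 with the library total, 10 with DESeq2, 1 with clean reads and 0 to 12 with each library left out. For W1 they were 0 to 9 without each suckling library. For W4 they went from 6 to 152 with the library total, 15 with DESeq2 and 4 to 48 without each suckling library, and for W7 from 5 to 16, 25 and 0 to 59. The cause was not tested.

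miR-143-5p, at -0.00 in the comparison of the groups, changed sign to 0.51 with the library total, 0.018 with DESeq2, 0.089 without a filter, 0.056 with the total without the 3 most abundant sequences and 0.38 with clean reads. With the day as a replicate block it was 0.017, and the block changed no call of any member. With each library left out, the difference ran from 0.0065 to 0.38 for miR-143-3p, -0.19 to 0.14 for miR-143-5p, -0.10 to 0.27 for miR-145-5p and -0.033 to 0.19 for miR-145-3p. Within a library, it ran from -0.11 to 0.37 for miR-143-3p to miR-145-5p, -0.12 to 0.36 for miR-143-3p to miR-143-5p, -0.19 to 0.13 for miR-145-5p to miR-145-3p, -0.26 to 0.15 for miR-143-5p to miR-145-5p, -0.11 to 0.25 for miR-143-3p to miR-145-3p, -0.17 to 0.025 for miR-143-5p to miR-145-3p, 1.01 to 1.84 for miR-143-3p to miR-192 and 0.65 to 1.72 for miR-145-5p to miR-192.

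In W1 the library total gave 0.19 for miR-143-3p and 0.050 for miR-145-5p, against -0.078 and -0.21. Without each suckling library, W1 gave -0.23 to 0.079 for miR-143-3p, -0.089 to 0.25 for miR-143-5p and -0.013 to 0.23 for miR-145-3p. In W4 the library total gave 0.87, 0.88, 1.22 and 0.91 for miR-143-3p, miR-143-5p, miR-145-5p and miR-145-3p, all past the threshold, and leaving out suckling libraries gave -0.027 to 0.27 for miR-143-5p and 0.40 to 0.61 for miR-145-5p. In W7 the library total gave 0.91 for miR-143-3p, 0.16 for miR-143-5p and 0.31 for miR-145-5p, and leaving out suckling libraries gave 0.45 to 0.74 for miR-143-3p, -0.10 to 0.10 for miR-145-5p and -0.063 to 0.16 for miR-145-3p. The members at least 2-fold higher went from 1 to 0 on days 4 and 7 under TMM, the total without the 3 most abundant sequences and clean reads, and to 4 on day 4 at 1.5-fold. With at least 100 reads in every library, 4 of the 5 most alike miRNAs were kept for miR-143-3p, 2 for miR-143-5p, 2 for miR-145-5p and 3 for miR-145-3p. Medians given relative to all sequences cannot change with the scaling, so TMM scaling of the cell type lists, chosen after the data were seen, is no check of them. With 143 to 280 reads per library, the same-day intervals of miR-143-5p were the widest of the 4 members.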
